A study of Mus musculus with 21 samples.

Results

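Aminoacyl-tRNA synthetases are the enzymes that load each amino acid onto its tRNA. The 36 genes described here, of the 46078 genes in the count table, are the 20 that encode cytosolic synthetases and 16 that encode mitochondrial ones. They were picked by gene symbol, matched to Ensembl identifiers in GENCODE M21 on GRCm38, by a rule that sets no threshold on any measured value, although earlier results of these data were known when the genes were listed. The data were RNA-seq counts from the livers of 21 mice. Of these, 3 were WT on the control diet (WT CTR), 4 KO on the control diet (KO CTR), 4 WT and 3 KO on a diet without cysteine (WT noCys, KO noCys), and 2 WT and 5 KO on a diet without tryptophan (WT noTrp, KO noTrp). KO stands for the label cse, a germline knockout of *Cse* (symbol *Cth*), the gene for cystathionine γ-lyase, on a mixed 129/C57BL/6 background. WT is the word in the labels, whereas the study's text describes its comparison mice as heterozygous for *Cse*, so WT here is a label and not a statement about both alleles. Per the study's methods, all mice were male, were 9 weeks old or more, received restricted calories, ate the control diet for 3 days and then 1 of the 3 diets for 2 days. Both depleted diets came from the same defined amino acid diet as the control, and the amino acids left in were raised to make up for the one removed. The tryptophan-free diet was included in the study to separate the response to cysteine loss from that to the loss of another amino acid.

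Each synthetase recognises 1 amino acid and the tRNAs that carry it, except *Eprs*, whose product joins glutamate and proline enzymes in a single protein. In most cases separate nuclear genes supply the cytosol and the mitochondria, although *Gars* and *Kars* serve both. When an amino acid runs short, its tRNA goes uncharged, and uncharged tRNA activates the kinase GCN2 (gene *Eif2ak4*), which phosphorylates eIF2α and thereby favours translation of the transcription factor ATF4. Genes for many cytosolic synthetases are known targets of ATF4 in other systems.

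Library totals lay between 8889951 and 27230852 counts, and all 36 genes passed the filter on low counts that left 14370 genes for testing. The genotype labels were borne out by *Cth*, with log2 fold changes in KO against WT of −4.11 on the control diet, −5.12 without cysteine and −4.56 without tryptophan. Hepatocyte markers (*Alb*, *Apoa1*, *Ttr*, *Apob* and *Cps1*) were detected in every group, whereas marker genes of muscle and adipocytes summed to under 7 CPM (counts scaled to a common library total) in every library. WT CTR replicate 3 stood apart, with 62165 CPM of the ribosomal-RNA-like gene *CT010467.1* against 725 to 2768 CPM in the other 20 libraries, and the main values of comparisons with WT CTR are given with and without it. In bulk tissue, fewer cells of a type and less RNA per cell cannot be told apart.

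The promoters of the synthetase genes were searched for TGATGNAA, the core of the element bound by ATF4 with C/EBP proteins. RefSeq promoter windows (GRCm38.p6, 250 bases before to 50 after the gene start) were at hand for 27 of the 36 genes. On either strand the letters stood in 1304 of all 32851 windows (3.97%). Among the synthetases, counted by gene and not by window, they stood in those of 5 genes (18.5% of 27), so the shares differ in unit. These 5 were all cytosolic (5 of 13 with a window), and none of the 14 mitochondrial genes with a window had a match. For each gene the match nearest its start is printed below with 11 bases on each side, 5′ to 3′ on the strand that reads TGATGNAA, with the match in capitals, so that their flanks can be compared. Distances are from the gene start to the end of the match that lies upstream on the gene's own strand, which is the right end of the capitals where the printed strand is not the gene's (*Aars*, *Gars*, *Iars* and *Tars*).
*Aars*, upstream end 9 bases after the start (chr8:111033840-111033869, minus strand): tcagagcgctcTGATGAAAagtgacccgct
*Gars*, upstream end 30 bases before the start (chr6:55037960-55037989, minus strand): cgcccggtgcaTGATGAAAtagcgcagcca
*Iars*, upstream end 7 bases after the start (chr13:49682126-49682155, minus strand): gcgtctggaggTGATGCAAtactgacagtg
*Tars*, upstream end 15 bases before the start (chr15:11399655-11399684, plus strand): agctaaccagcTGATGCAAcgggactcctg
*Yars*, upstream end 3 bases after the start (chr4:129189895-129189924, plus strand): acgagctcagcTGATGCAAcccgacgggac

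The central N was C in 3 of these matches and A in the other two. *Gars*, among the genes with the largest difference described below, is shown with its 250 bases before the start, on the gene's own plus strand, where the match reads as the reverse complement.
*Gars*, chr6:55037751-55038000: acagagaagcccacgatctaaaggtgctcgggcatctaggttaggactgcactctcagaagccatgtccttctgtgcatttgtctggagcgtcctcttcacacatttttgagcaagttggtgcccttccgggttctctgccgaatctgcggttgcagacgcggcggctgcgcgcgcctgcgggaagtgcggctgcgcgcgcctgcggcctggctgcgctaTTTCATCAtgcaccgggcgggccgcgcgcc
A match is a run of letters and not a shown binding site, and the windows of *Sars*, *Mars* and *Eprs* held none. *Cars*, *Hars*, *Lars*, *Nars*, *Rars*, *Vars*, *Wars*, *Hars2* and *Pars2* had no window and were not searched.

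In WT CTR livers the cytosolic genes were, per length, mostly the more abundant. On the scale of CPM per kilobase of merged exons, *Nars* was highest among genes other than *Lars2* at 19.7 ± 0.558 (SD, n = 3), followed by *Aars* at 18.5 ± 0.218 and by *Hars* at 13.6 ± 0.863, *Gars* at 13.2 ± 1.39 and *Sars* at 12.8 ± 0.0135. The levels of *Hars*, *Gars* and *Sars* did not differ beyond their spread, whereas *Nars* lay above *Aars* in all 3 libraries. *Cars*, for cysteine, stood low among cytosolic genes at 2.88 ± 0.116 CPM per kilobase. The lowest levels belonged to the mitochondrial genes *Mars2* (0.259 ± 0.0308), *Pars2* (0.605 ± 0.0932), *Wars2* (0.623 ± 0.105) and *Cars2* (0.799 ± 0.343). Merged exons include rare long transcript forms, so these values per length are the more understated the more such forms a gene has.

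Added over the 20 cytosolic genes, the level was 1005 to 1068 CPM in WT CTR and 1015 to 1092 CPM in WT noCys, and it reached 1632, 2238 and 1975 CPM in the 3 KO noCys livers. KO CTR (1149 to 1308 CPM) and KO noTrp (1122 to 1272 CPM) lay between these ranges, and WT noTrp lay at 1055 and 1148 CPM. The KO noCys libraries thus overlapped with no other group. The 15 mitochondrial genes without *Lars2* moved much less, from 216 to 238 CPM in WT noCys to 252 to 270 CPM in KO noCys. The ratio of the cytosolic to the mitochondrial sum was 7.49 ± 0.924 (SD, n = 3) in KO noCys and had group means of 4.68 to 5.16 in the other 5 groups.

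**Figure D1:**
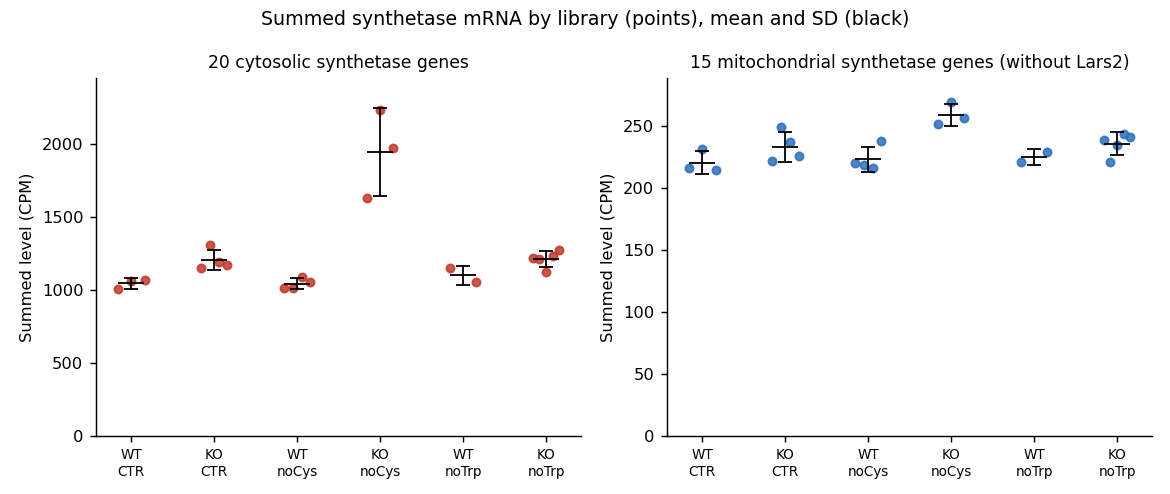
Summed level in CPM (vertical axis, from 0) of 20 cytosolic genes (left) and of 15 mitochondrial genes without *Lars2* (right) in the 6 groups, where points are libraries and black marks the mean and SD. The cytosolic sum reaches 1632 to 2238 CPM in KO noCys and at most 1308 CPM in any other library.

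KO and WT mice on the cysteine-free diet were compared to follow the liver's response where no cysteine came from food and the enzyme that makes it was missing. Of the 20 cytosolic genes, 19 rose in KO noCys and none fell (edgeR's quasi-likelihood test, Benjamini-Hochberg adjusted p under 0.05 over 14370 genes). Of the 16 mitochondrial genes, 7 rose and 1 fell. Among all genes tested, 28.2% were called, 14.8% higher and 13.4% lower. The median log2 fold change was 0.91 for the cytosolic and 0.34 for the mitochondrial genes (0.51 without *Lars2*), beside −0.02 for all genes. No test was made of the difference between the lists. All 20 cytosolic genes had every KO noCys library above every WT noCys library, as 19.4% of all genes did. The exception to the calls was *Qars*, for glutamine, at 0.23 ± 0.10 (log2, SE; adjusted p = 0.0857).

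**Figure D2:**
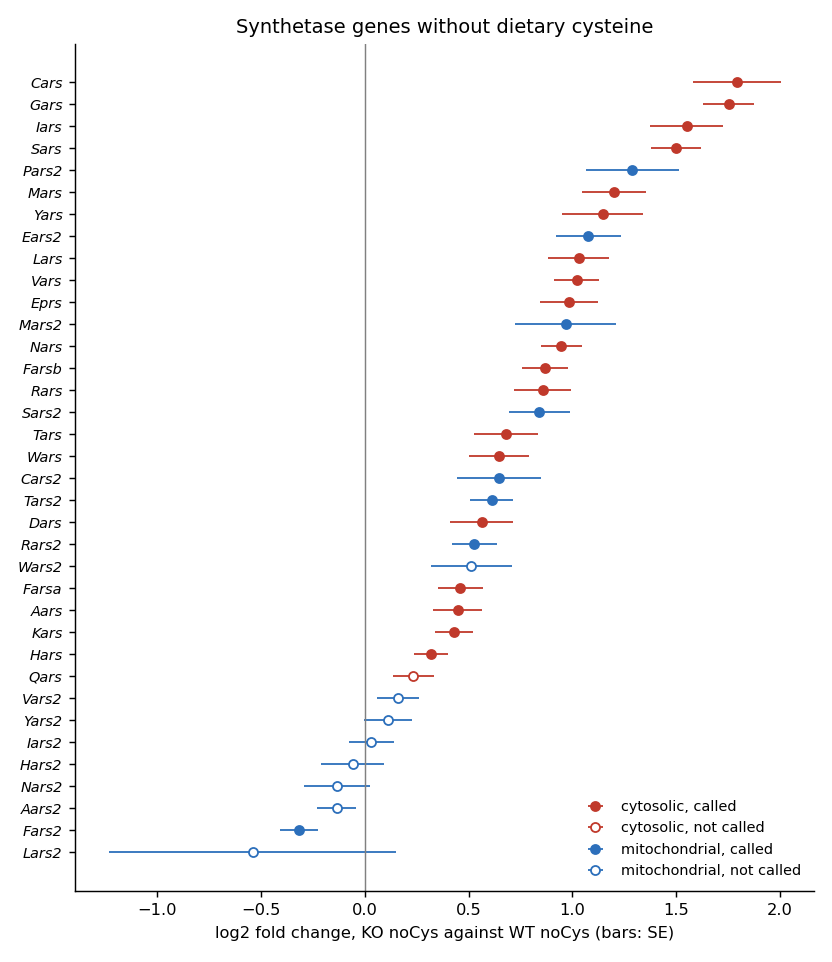
Log2 fold change of KO noCys against WT noCys (horizontal axis) for the 36 genes in order of size, with SE bars. Red marks cytosolic and blue mitochondrial genes, and filled points were called. Every cytosolic point lies right of 0, while the mitochondrial points run from 1.29 for *Pars2* to −0.54 for *Lars2*.

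The gene for the cytosolic enzyme of the missing amino acid had the largest fold change, by a margin over *Gars* that was within the SE. *Cars* (chr7:143557230-143600090, minus strand), which charges cytosolic tRNA with cysteine, measured 18.1, 14.8, 19.8 and 17.1 CPM in WT noCys and 42.2, 75.9 and 62.9 CPM in KO noCys. Each KO noCys liver was therefore more than 2 times the highest WT noCys liver. The log2 fold change was 1.79 ± 0.21 (SE; adjusted p = 6.81e-06). Next came genes for amino acids that were present in the diet. *Gars* (chr6:55038007-55079500, plus strand), for glycine, measured 35.3, 35.8, 38.8 and 42.5 CPM in WT noCys and 110.2, 149.5 and 125.9 CPM in KO noCys, a log2 fold change of 1.75 ± 0.12 (adjusted p = 1.4e-08). The groups were far apart and the spread within each was narrow.

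*Iars* (chr13:49682100-49734267, plus strand), for isoleucine, measured 20.1, 21.5, 17.3 and 19.2 CPM in WT noCys and 42.3, 72.2 and 56.4 CPM in KO noCys. Its log2 fold change was 1.55 ± 0.18 (adjusted p = 5.19e-06). *Sars* (chr3:108424865-108445209, minus strand), for serine, measured 66.8, 74.4, 69.1 and 71.3 CPM in WT noCys and 145.7, 243.8 and 207.1 CPM in KO noCys. In both genes the KO noCys livers were well above the WT noCys livers, with replicate 1 lowest and replicate 3 highest. The log2 fold change of *Sars* was 1.50 ± 0.12 (adjusted p = 7.16e-08).

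**Figure D3:**
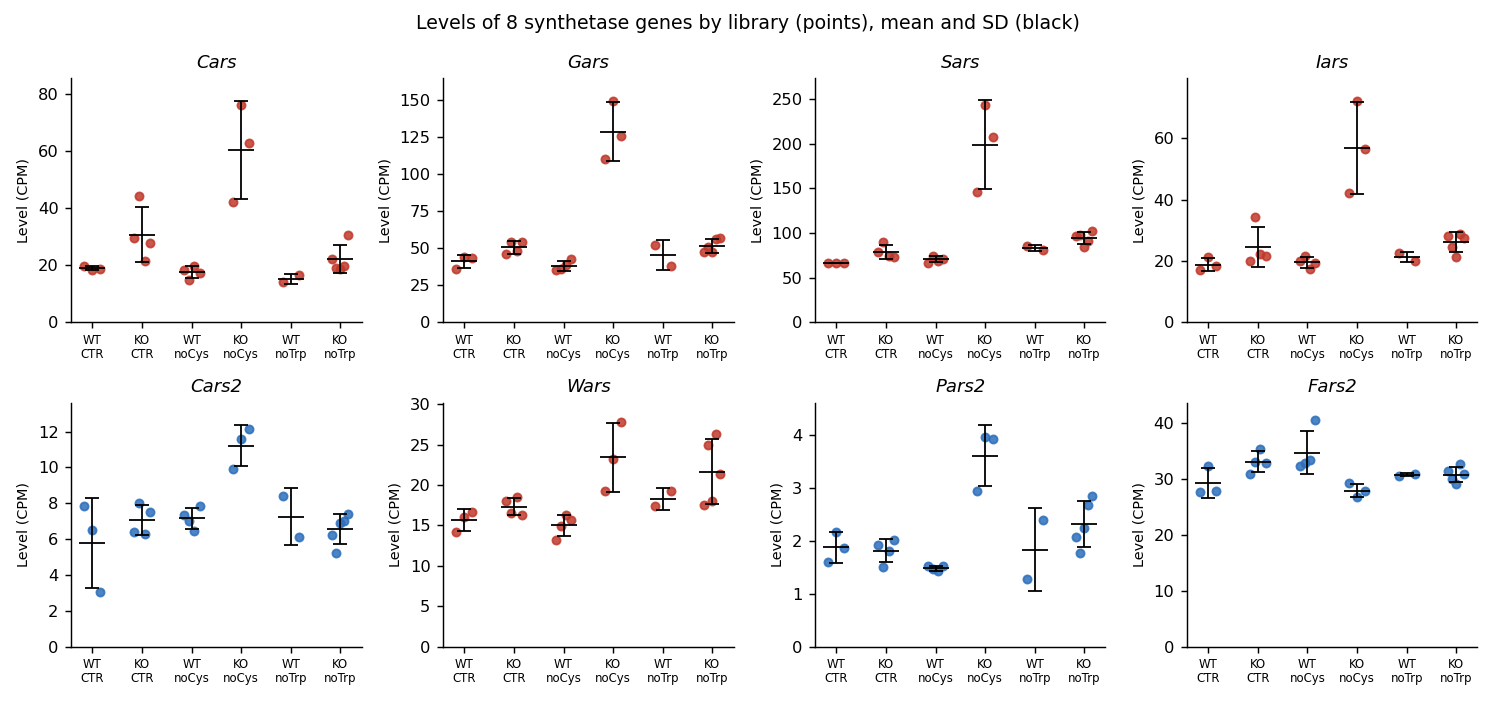
Level in CPM (vertical axes, from 0) of 8 synthetase genes in the 6 groups, where points are libraries and black marks the mean and SD. Cytosolic genes are red and mitochondrial genes blue. KO noCys is the highest group for 7 of the 8 and the lowest for *Fars2*, whose KO noCys libraries lie between 26.7 and 29.2 CPM.

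The remaining cytosolic genes that rose spanned 1.20 to 0.32. *Mars* (methionine) at 1.20, *Yars* (tyrosine) at 1.15, *Lars* (leucine) at 1.03 and *Vars* (valine) at 1.02 were the highest of them on the log2 scale. *Eprs*, *Nars* (asparagine), *Farsb* (a subunit of the phenylalanine enzyme) and *Rars* (arginine) followed at 0.98, 0.95, 0.87 and 0.86. The smaller rises were those of *Tars* (threonine, 0.68), *Wars* (tryptophan, 0.65), *Dars* (aspartate, 0.56), *Farsa* (the other phenylalanine subunit, 0.46), *Aars* (alanine, 0.45), *Kars* (lysine, 0.43) and *Hars* (histidine, 0.32). *Wars* measured 13.2, 14.98, 16.2 and 15.7 CPM in WT noCys and 19.3, 23.3 and 27.8 CPM in KO noCys, without overlap. Among the 5 genes with the promoter letters, *Gars* and *Iars* were near the top of this order and *Aars* was near its foot.

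A group of 8 cytosolic synthetases is held in the multisynthetase complex, an assembly built on the scaffold proteins encoded by *Aimp1*, *Aimp2* and *Eef1e1*. Of its 8 enzymes 7 rose, at a median of 0.92 on the log2 scale, and all 12 of the cytosolic genes outside it rose, at a median of 0.91. Synthetases also fall into 2 structural classes that arose separately, and both were represented: 9 of 10 cytosolic class I genes rose with a median of 1.03, *Eprs* being counted there, and 10 of 10 class II genes rose with a median of 0.62. No test compared these subgroups.

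The mitochondrial enzymes divided. *Pars2* (proline; chr4:106651069-106655282, plus strand) measured 1.52, 1.46, 1.42 and 1.51 CPM in WT noCys and 2.93, 3.96 and 3.92 CPM in KO noCys, low levels whose groups were nonetheless apart. Its log2 fold change was 1.29 ± 0.22 (adjusted p = 0.000312). *Ears2* (glutamate, 1.08), *Mars2* (methionine, 0.97), *Sars2* (serine, 0.84), *Cars2* (cysteine, 0.65), *Tars2* (threonine, 0.61) and *Rars2* (arginine, 0.53) also rose on the log2 scale. The other 9 comprised *Fars2*, which fell, and 8 that were not called, with values from 0.51 for *Wars2* (tryptophan; adjusted p = 0.0524) to −0.54 for *Lars2* (leucine). *Wars2* measured 3.73, 3.72, 3.42 and 3.88 CPM in WT noCys and 4.398, 6.10 and 5.21 CPM in KO noCys, groups that did not overlap although the gene was not called.

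*Cars2* (chr8:11513977-11550783, minus strand), the mitochondrial cysteine enzyme, measured 7.35, 6.98, 6.46 and 7.86 CPM in WT noCys and 9.92, 11.6 and 12.1 CPM in KO noCys. Every KO library was higher, by a smaller margin than for *Cars*, and the adjusted p was 0.0227. The call was lost when WT noCys replicate 3 or KO noCys replicate 3 or 4 was left out, where the log2 fold change was 0.60, 0.62 and 0.59 (adjusted p = 0.0555, 0.0794 and 0.0807). It measured 7.84, 6.49 and 3.02 CPM in WT CTR and 8.38 and 6.12 CPM in WT noTrp, all below the KO noCys livers.

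*Fars2* (phenylalanine; chr13:36117412-36726280, plus strand) was the gene that fell. It measured 32.3, 32.8, 33.3 and 40.5 CPM in WT noCys and 29.2, 26.7 and 27.8 CPM in KO noCys, so that all KO libraries lay below all WT libraries. The log2 fold change was −0.32 ± 0.09 (adjusted p = 0.0138), whereas *Farsa* and *Farsb*, which encode the cytosolic enzyme for the same amino acid, rose. Without WT noCys replicate 4, the highest library, it was −0.23 (adjusted p = 0.0540), without KO noCys replicate 3 it was −0.29 (adjusted p = 0.0750), without the low-count filter it was −0.31 (adjusted p = 0.0793), and with library totals as the only scaling it was −0.11 (adjusted p = 0.460).

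For 13 amino acids both compartments had a separate single gene among the 36. In all 13 pairs the cytosolic gene had the larger log2 fold change, although the leucine pair rests on *Lars2*, which is read apart below. In 5 pairs both genes rose (cysteine, methionine, arginine, serine and threonine), and in the other 8 the cytosolic gene alone was called. The pair for serine stood at 1.50 and 0.84, that for methionine at 1.20 and 0.97, and that for isoleucine at 1.55 and 0.03. The difference within a pair was not tested.

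Within KO noCys, replicate 1 was the lowest of the 3 livers for 17 of the 20 cytosolic genes and replicate 3 the highest for 17. The summed hepatocyte markers ran the other way, at 65016 CPM of unscaled totals in replicate 1, 43266 in replicate 3 and 47330 in replicate 4, against 82674 to 92744 CPM in WT noCys. Their part in the result was not tested. Immune markers summed to 69.6 to 93.6 CPM in KO noCys and 64.8 to 118.9 CPM in WT noCys, and endothelial and stellate markers to 217.9 to 220.4 and 198.7 to 280.7 CPM. Erythroid markers (137.9 to 176.0 against 176.1 to 350.8 CPM) and cholangiocyte and gut markers (6.64 to 7.71 against 9.21 to 18.3 CPM) were lower in KO noCys without overlap, as were ribosomal-RNA-like genes (1227 to 1379 against 1390 to 1863 CPM), and their part in the result was not tested either. Left out in turn, the libraries gave 22 to 28 called genes of 36. The least, 22, of which 17 were cytosolic and 5 mitochondrial, came without KO noCys replicate 3. Here and below, counts with a library left out stand without the share of all genes called in the same fit. From these counts a loss particular to the synthetases cannot be told from a general one. With library totals as the only scaling the median of all genes rose from −0.02 to 0.20, and the share of all calls that were higher went from 52.5% to 80.0%. In that scaling 20 cytosolic and 10 mitochondrial genes were called higher and none lower. These counts stand without the share of all genes called higher. *Aars2*, at −0.14 in the main scaling, then stood at 0.09.

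Against KO mice on the control diet, the KO noCys livers share the genotype and differ in diet. Here 25 of the 36 genes rose and none fell, 19 cytosolic and 6 mitochondrial, beside 20.2% of all genes called and 10.6% called higher. The medians were 0.64 and 0.24, with 0.00 for all genes. KO CTR is also the reference of the tryptophan comparison below, so the comparisons share samples. *Gars* measured 45.9, 54.2, 47.9 and 54.4 CPM in KO CTR, well below the KO noCys livers, and had a log2 fold change of 1.35 ± 0.12 (adjusted p = 5.53e-07). *Sars* at 78.4, 89.3, 73.9 and 72.9 CPM in KO CTR differed by 1.34 ± 0.12 and *Iars* at 19.9, 34.4, 22.4 and 21.6 CPM by 1.21 ± 0.18. Hepatocyte markers summed to 69694 to 75813 CPM of unscaled totals in KO CTR, above the 43266 to 65016 CPM of KO noCys without overlap. Ribosomal-RNA-like genes were also lower in KO noCys (1227 to 1379 against 1544 to 3198 CPM), and pancreas markers, of which 5 of 7 were at 0 in KO noCys, were higher (15.01 to 17.70 against 11.34 to 13.99 CPM). The sums of the other marker lists overlapped. The part of these shifts in the result was not tested.

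For *Cars* the 2 groups overlapped. It measured 29.3, 44.1, 21.5 and 27.9 CPM in KO CTR, so that replicate 2 exceeded the lowest KO noCys liver. The log2 fold change was 0.97 ± 0.21 (adjusted p = 0.00261). *Cars2*, at 6.42, 8.03, 6.30 and 7.49 CPM in KO CTR, was 0.67 ± 0.20 higher in KO noCys (adjusted p = 0.0243), and *Wars*, at 18.0, 16.5, 18.5 and 16.4 CPM, was 0.44 ± 0.14 higher (adjusted p = 0.0327). Both groups were separate for these 2 genes, yet the call of *Cars2* was lost without any of 4 single libraries (KO CTR replicates 1 and 3, KO noCys replicates 3 and 4; adjusted p = 0.0612 to 0.0910). That of *Wars* was lost without any of 5 (KO CTR replicates 1, 2 and 4, KO noCys replicates 3 and 4; adjusted p = 0.0512 to 0.200). The call of *Wars* was also lost without the low-count filter and with only the compared groups (adjusted p = 0.0625 and 0.0581). Without KO noCys replicate 3 the count fell to 15 of 36, 12 of them cytosolic. The shares of all genes given above belong to the fit with all libraries and not to this one. Scaling by library totals alone moved the median of all genes to 0.13 and the share of calls that were higher from 52.6% to 73.7%.

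Between the 2 depleted diets in KO mice, 21 genes were higher without cysteine and none was lower, 16 cytosolic and 5 mitochondrial, beside 13.9% of all genes called and 7.17% called higher. The medians were 0.62 for cytosolic, 0.18 for mitochondrial and 0.01 for all genes. Immune markers summed to 69.6 to 93.6 CPM in KO noCys and to 105.5 to 165.9 CPM in KO noTrp, without overlap, and their part in the result was not tested. The sums of the other marker lists overlapped, those of hepatocytes included (58138 to 76628 CPM in KO noTrp). *Cars* measured 22.0, 19.1, 18.7, 19.8 and 30.4 CPM in KO noTrp, all below the KO noCys livers, with a log2 fold change of 1.46 ± 0.20 (adjusted p = 9.43e-05). *Gars*, at 47.6, 50.7, 47.2, 56.0 and 56.9 CPM, differed by 1.32 ± 0.12, and *Iars*, at 28.3, 24.5, 21.2, 28.9 and 27.5 CPM, by 1.13 ± 0.17. *Cars2*, at 6.24, 5.23, 6.88, 7.02 and 7.39 CPM, differed by 0.78 ± 0.19 (adjusted p = 0.0107), a call lost without KO noCys replicate 3 or 4 (adjusted p = 0.0651 and 0.0523). Of the 4 cytosolic genes that were not called, *Wars* had the smallest value. Without KO noCys replicate 3, 10 of the 36 were called, all cytosolic, a count without the share of all genes called in that fit beside it. With library totals alone, the share of all calls that were higher went from 51.5% to 68.3%.

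The tryptophan enzyme was examined in the same way. *Wars* (chr12:108860030-108894174, minus strand) measured 17.5, 25.0, 18.0, 26.4 and 21.4 CPM in KO noTrp and 19.3, 23.3 and 27.8 CPM in KO noCys. The groups overlapped, with a log2 difference of 0.12 ± 0.14 (adjusted p = 0.580). Against KO CTR, *Wars* in KO noTrp differed by 0.32 ± 0.13 (adjusted p = 0.200) and *Cars* by −0.49 ± 0.19 (adjusted p = 0.182). In WT mice *Wars* measured 14.2, 16.1 and 16.7 CPM on the control diet and 17.4 and 19.3 CPM without tryptophan, a difference of 0.23 ± 0.17 (adjusted p = 0.526). Without WT CTR replicate 3 the difference was 0.27 (adjusted p = 0.569). *Wars2*, the mitochondrial counterpart, measured 5.05, 2.75, 5.11, 3.76 and 4.25 CPM in KO noTrp and 4.57, 4.46, 3.94 and 4.94 CPM in KO CTR, a difference of −0.08 ± 0.17. The KO CTR livers of *Wars2* all lay within the wider range of the KO noTrp livers. In WT mice *Wars2* measured 4.24, 3.87 and 3.02 CPM on the control diet and 4.09 and 3.29 CPM without tryptophan, which overlapped.

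Removing tryptophan moved no synthetase gene past the threshold in KO mice: edgeR called 0 of 36 against KO CTR, beside 1.87% of all genes, and DESeq2 and limma-voom also called 0. At an unadjusted p under 0.05 in edgeR there were 3, *Cars*, *Sars* and *Wars*. For this comparison and the next, the share of all genes at that unadjusted threshold was not counted. The medians were 0.02 for cytosolic and 0.07 for mitochondrial genes. Between KO noTrp and WT noTrp edgeR, DESeq2 and limma-voom likewise called 0, beside 0.195% of all genes in edgeR, and *Cars* alone had an unadjusted p under 0.05 (log2 difference 0.54 ± 0.25; adjusted p = 0.524). WT noTrp had 2 livers, which limits this comparison. Pancreas markers were higher in KO noTrp than in KO CTR (14.86 to 23.5 against 11.34 to 13.99 CPM), and erythroid markers were lower in KO noTrp than in WT noTrp (111.9 to 213.6 against 221.8 to 377.7 CPM), both without overlap. Their part in these values was not tested.

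**Figure D4:**
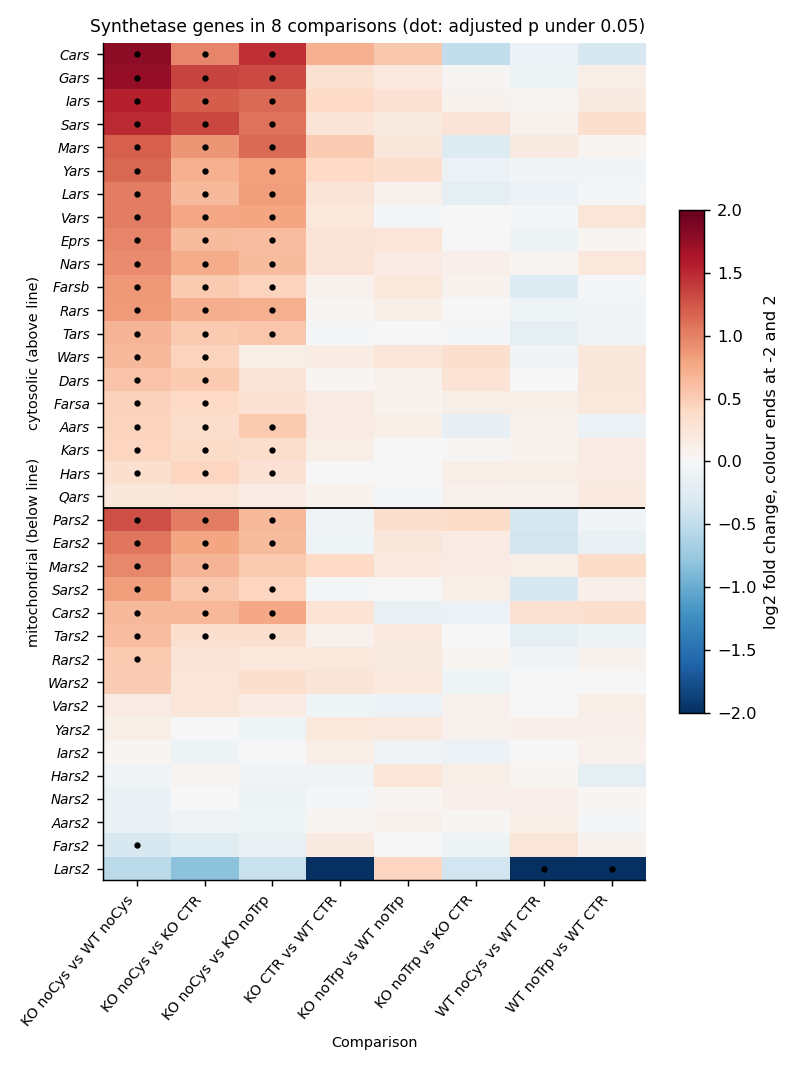
Log2 fold change (colour, red higher and blue lower in the first-named group, ends at −2 and 2) of the 36 genes in rows, cytosolic above the line, in 8 comparisons in columns, where a dot marks an adjusted p under 0.05. The dots lie in the 3 left columns, all with KO noCys, apart from those of *Lars2* in the 2 right columns, which rest on WT CTR replicate 3.

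On the control diet, KO and WT mice were compared to see what loss of the enzyme did by itself. edgeR called 0 of 36 genes, beside 0.32% of all genes, DESeq2 called 1 (*Lars2*, lower) and limma-voom 0. In edgeR 6 had an unadjusted p under 0.05, of which 5 were cytosolic and 1 was *Lars2*. The share of all genes at that unadjusted threshold was not counted. Values above 0 were found for 19 of the 20 cytosolic genes, with a median of 0.19 beside 0.00 for all genes. In 7 of them (*Aars*, *Cars*, *Gars*, *Mars*, *Sars*, *Vars* and *Yars*) every KO liver exceeded every WT liver, as in 5.39% of all genes. Pancreas markers, of which 4 of 7 were at 0 in KO CTR and 5 of 7 in WT CTR, summed to 11.34 to 13.99 CPM in KO CTR and 16.96 to 22.85 CPM in WT CTR, without overlap, and their part in these values was not tested. *Cars* measured 19.8, 18.4 and 18.6 CPM in WT CTR, a narrow range under all 4 KO CTR values given above, and differed by 0.71 ± 0.22 (adjusted p = 0.227). *Mars* measured 37.8, 40.8 and 34.3 CPM in WT CTR and 47.7, 69.6, 51.3 and 45.1 CPM in KO CTR, a difference of 0.51 ± 0.16 (adjusted p = 0.223). These differences shared a sign but did not pass the correction. Without WT CTR replicate 3 there were again 0 calls, the cytosolic median was 0.20, *Cars* differed by 0.70 (adjusted p = 0.455) and *Mars* by 0.45 (adjusted p = 0.492), and every KO liver exceeded both remaining WT livers in 10 cytosolic genes, as in 9.67% of all genes.

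In WT mice, removing cysteine gave a call for 1 of the 36 genes, *Lars2*, which was lower, beside 0.661% of all genes called and 0.271% called lower. The cytosolic median was −0.02, and *Cars* differed by −0.11 ± 0.22 (adjusted p = 0.870). Removing tryptophan in WT mice likewise gave 1 call, again *Lars2*, beside 3.19% of all genes called and 1.5% called lower, with a cytosolic median of 0.15. *Cars* measured 13.9 and 16.4 CPM in WT noTrp, both below the WT CTR livers, and *Sars* 85.2 and 80.4 CPM, both above 66.0, 66.1 and 66.0 CPM in WT CTR. Neither was called (*Cars* −0.32 ± 0.27, adjusted p = 0.568; *Sars* 0.33 ± 0.15, adjusted p = 0.242). Immune markers summed to 130.2 to 146.5 CPM in WT noTrp and 55.3 to 98.3 CPM in WT CTR, without overlap, and pancreas markers to 11.83 to 16.47 CPM in WT noCys, below the 16.96 to 22.85 CPM of WT CTR. Their part in these values was not tested. Without WT CTR replicate 3 the cytosolic medians were 0.02 for cysteine and 0.15 for tryptophan removal, *Cars* differed by −0.13 and −0.33, and *Sars* in WT noTrp by 0.33 (adjusted p = 0.384).

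Whether cysteine removal acted differently in the genotypes was tested as a difference of differences. For 15 genes the change was more positive in KO than in WT and for 1, *Fars2*, it was more negative, beside 7.44% of all genes called, 3.56% higher and 3.88% lower. Of the 15, 11 were cytosolic and 4 mitochondrial (*Ears2*, *Pars2*, *Sars2* and *Tars2*). The medians were 0.73 and 0.28, with 0.00 for all genes. The largest called values were 1.45 ± 0.17 for *Gars* (adjusted p = 7.53e-05), 1.36 ± 0.33 for *Pars2* (adjusted p = 0.0161) and 1.25 ± 0.17 for *Sars* (adjusted p = 0.000296). Without WT CTR replicate 3 they were 1.41, 1.37 and 1.24 (adjusted p = 0.000403, 0.0326 and 0.00111). *Cars* came to 1.09 ± 0.30 (adjusted p = 0.0337) and *Fars2* to −0.49 ± 0.13 (adjusted p = 0.0259). On the control diet *Gars* measured 36.1, 43.8 and 43.3 CPM in WT mice, all below the KO CTR livers. *Pars2* measured 1.59, 2.16 and 1.86 CPM in WT CTR and 1.93, 1.50, 1.81 and 2.01 CPM in KO CTR, which overlapped. *Fars2* measured 27.6, 32.4 and 27.8 CPM in WT CTR and 30.9, 33.1, 35.4 and 32.8 CPM in KO CTR, so that its KO noCys livers lay below all KO CTR livers and overlapped with WT CTR. Single libraries decided several of these calls. That of *Cars* was lost without any of 11 libraries (WT CTR 1, 2 and 3, KO CTR 1, 3 and 4, WT noCys 1, 2 and 4, and KO noCys 3 and 4; adjusted p = 0.0535 to 0.130), where it lay between 0.89 and 1.11. That of *Fars2* was lost without any of 5 (WT CTR 1 and 3, KO CTR 3, and KO noCys 3 and 4; adjusted p = 0.0536 to 0.0840) and with the replicate number as a block (−0.46, adjusted p = 0.0608), and that of *Pars2* without WT CTR 2 or KO noCys 3 (adjusted p = 0.0581 and 0.0576). The call of *Fars2* was also lost without the low-count filter and with library totals alone (adjusted p = 0.0838 and 0.161). Without KO noCys replicate 3 the count was 8 of 36, and without WT CTR replicate 3 it was 12, again without the share of all genes. Scaling by library totals alone moved the share of calls that were higher from 47.9% to 72.6%. In that scaling 13 cytosolic and 4 mitochondrial genes were higher and none lower, counts without the share of all genes called higher beside them.

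The effect of genotype was also larger without cysteine than without tryptophan for 13 genes, 11 cytosolic and the mitochondrial *Ears2* and *Sars2*, and smaller for none, beside 6.35% of all genes called and 3.32% called higher. *Gars* (1.56 ± 0.18, adjusted p = 4.35e-05), *Sars* (1.31 ± 0.18, adjusted p = 0.000253) and *Iars* (1.26 ± 0.26, adjusted p = 0.00711) led, with *Cars* at 1.26 ± 0.32 (adjusted p = 0.0212). In WT noTrp *Gars* measured 52.2 and 37.9 CPM and *Iars* 22.5 and 20.02 CPM. *Sars* measured 96.4, 97.6, 84.7, 90.4 and 101.9 CPM in KO noTrp, all below the KO noCys livers. The medians were 0.74 for cytosolic and 0.29 for mitochondrial genes. The count was 5 without KO noCys replicate 3 and 8 without WT noTrp replicate 2, and the share of all calls that were higher went from 52.3% to 81.4% with library totals alone. The difference of *Cars* lost its call without either library (adjusted p = 0.0866 and 0.0777) and with limma-voom (1.27, limma-voom adjusted p = 0.0843). Both counts stand without the share of all genes called in the same fit.

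*Lars2* (chr9:123366927-123462666, plus strand), the mitochondrial leucine enzyme, has to be read apart from the rest. It measured 1110, 690 and 21115 CPM in WT CTR, 1425, 754, 873 and 785 CPM in KO CTR, and 618, 459 and 555 CPM in KO noCys. In WT noCys it measured 721, 600.0, 842 and 999.7 CPM, in WT noTrp 466 and 630.0 CPM, and in KO noTrp 675, 565, 553, 1255 and 642 CPM. WT CTR replicate 3 was thus more than 10 times above every other library, and it was also the library with the most reads of *CT010467.1*. In CPM of unscaled totals, the ratio of *Lars2* to *CT010467.1* was 0.299 in that library and 0.464 to 0.677 in the other 20.

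**Figure D5:**
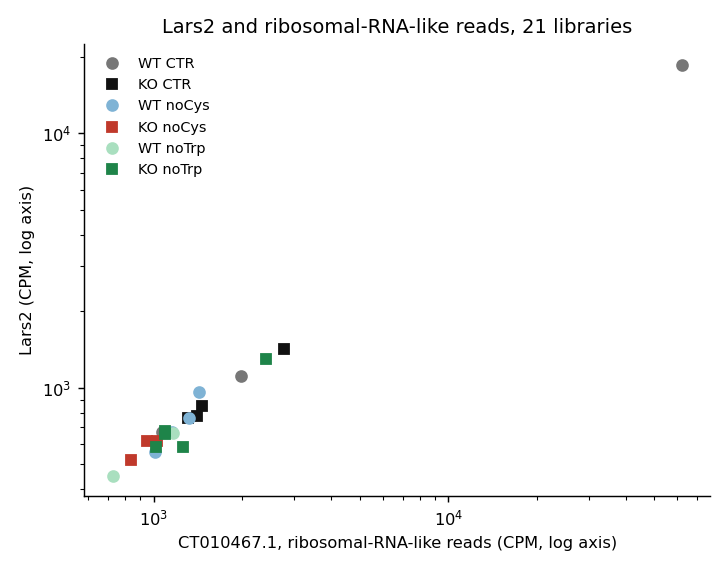
CPM of unscaled totals of *CT010467.1* (horizontal log axis) and of *Lars2* (vertical log axis) in 21 libraries, coloured by group. WT CTR replicate 3 stands alone at 62165 and 18617 CPM, and in the other libraries both values are low or high together.

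The calls of *Lars2* rested on that library. Its log2 fold change in WT noCys against WT CTR was −3.27 ± 0.71 (adjusted p = 0.0395) with WT CTR replicate 3 and −0.19 (adjusted p = 0.889) without it. In WT noTrp against WT CTR it was −3.80 ± 0.97 (adjusted p = 0.0372) and −0.72 (adjusted p = 0.387), and in KO CTR against WT CTR it was −2.99 (adjusted p = 0.0765) and 0.09. Without WT CTR replicate 3 neither comparison of diets in WT mice had a called synthetase gene. The call in WT noCys was also lost without any single WT noCys library (adjusted p = 0.0815 to 0.112), and that in WT noTrp without either WT noTrp library (adjusted p = 0.222 and 0.0904).

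Genes that work beside the synthetases were counted from a list of 23 tested genes. In KO noCys against WT noCys 11 of the 23 rose and none fell, beside 28.2% of all genes called and 14.8% called higher, with a median log2 fold change of 0.38. Of the scaffold genes of the multisynthetase complex, *Aimp2* (0.95) and *Aimp1* (0.47) rose, while *Eef1e1* stood at 0.17 (adjusted p = 0.475). Of the elongation factor genes, whose products carry charged tRNA to the ribosome or recharge that carrier, *Eef1g* (0.67), *Eef1a1* (0.59), *Eef1b2* (0.38) and the mitochondrial *Tufm* (0.55) rose, and *Eef1d* and *Tsfm* were not called. *Xpot*, which exports tRNA from the nucleus, rose by 0.78, and *Dtd1*, which removes wrongly attached D-amino acids, by 0.47.

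In mitochondria, glutamine is attached by first charging tRNA with glutamate and then converting it. *Gatb*, a subunit of the converting enzyme, was called at 0.26 against WT noCys, where it measured 27.5, 30.6, 30.0 and 33.6 CPM. It measured 37.2, 34.9 and 37.7 CPM in KO noCys and 41.5, 43.8, 41.0 and 37.5 CPM in KO CTR. In KO noTrp it measured 39.4 to 47.9 CPM. Among KO livers *Gatb* was therefore not raised without cysteine, and what set it apart from WT noCys was not tested. *Gatc* (−0.10) and *Qrsl1* (0.53, adjusted p = 0.0570), the other subunits of the enzyme, were not called. Among genes of the sensing pathway, *Eif2s1*, for the α subunit of eIF2, rose by 0.87 and *Gcn1l1*, for the activator of GCN2, by 0.46. The messages of *Atf4* (0.42, adjusted p = 0.0909) and *Eif2ak4* (−0.34, adjusted p = 0.200) did not pass the test, and the phosphorylation and translation by which this pathway acts are not seen in these data. In KO noCys against KO CTR, 6 of the 23 rose and none fell, beside 20.2% of all genes called and 10.6% called higher.

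Counting without a stated strand setting makes overlapping genes uncertain. Exons of *Mars* overlap those of *Ddit3*, those of *Hars* those of *Hars2*, and those of *Cars*, *Yars*, *Farsb*, *Cars2*, *Ears2*, *Fars2*, *Iars2*, *Nars2* and *Vars2* those of other genes on the opposite strand. *Aars* overlaps 1 gene on each strand. Reads from such stretches cannot be assigned to either partner from these counts. *Cars*, with the largest fold change in KO noCys against WT noCys, is thus among the uncertain genes, while *Gars*, *Iars*, *Sars* and *Pars2*, next in that order, have no annotated exon overlap.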

How the data were processed

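The deposited file held raw read counts per Ensembl gene, without normalization. Per the labels and methods, the authors isolated RNA with TRIzol, selected poly(A) RNA, made NEBNext Ultra libraries, aligned paired reads to GRCm38 with HISAT2 2.1.0 and counted them with HTSeq 0.11.0; the strand setting is not given in the sources used here. 1 column matched no sample and was not used. Groups came from the sample titles, and p-values measure the spread between animals. Symbols came from GENCODE M21, which held 45229 of 46078 identifiers. The other 849 held 0.0536% of counts.

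Genes with low counts were removed with filterByExpr (minimum count 10, minimum total 15), and 14370 were tested. TMM scaled the totals, with factors of 0.883 to 1.14. In edgeR 4.0.16 (R 4.3.3), all 21 libraries entered a single model with a mean for each of 6 groups, so that groups of 2 to 5 animals shared 1 spread, and each comparison used the two-sided quasi-likelihood F-test with Benjamini-Hochberg adjustment over 14370 genes and a threshold of 0.05. Every adjusted p is from this test unless another tool is named. CPM of the synthetase genes and of the genes that work beside them are TMM-scaled unless called unscaled. All marker sums, and the CPM of ribosomal-RNA-like genes such as *CT010467.1*, are of unscaled library totals. Whether the marker ranges overlap on the TMM scale was not examined. Alternatives were DESeq2 1.42.0, limma-voom with quality weights (limma 3.58.1), RLE size factors, library totals alone, no low-count filter, the compared groups alone, a replicate block, and each library left out. Values in every library were given for the cysteine and tryptophan enzymes and *Lars2*, and, in the groups compared, for the called genes with the largest changes. The 36 genes, the other lists and the tests were chosen with earlier results of these data known. No 2 libraries of a group agreed within sampling noise (chi-square per degree of freedom at least 11.6), so none was treated as a repeated deposit. That they came from separate animals rests on the titles, which name them biological replicates. A few items are not reported here.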

Additional observations from a re-analysis of the deposited data

Results flagged for a closer look

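In 8 of 108 gene and group combinations with 4 or 5 libraries, 1 library lay apart from the others of its group by Dixon's criterion, which chance meets in about 5% of groups. In KO CTR, replicate 2 was high for *Iars* (34.4 CPM, others 19.9 to 22.4) and *Hars2* (25.7 CPM, others 16.4 to 16.8), replicate 3 was low for *Sars2* (7.09 CPM, others 8.49 to 8.68), and replicate 4 was low for *Vars2* (14.8 CPM, others 16.6 to 17.0). In KO noTrp, replicate 5 was high for *Cars* (30.4 CPM, others 18.7 to 22.0) and replicate 4 for *Lars2* (1255 CPM, others 553 to 675). In WT noCys, replicate 4 was high for *Fars2* (40.5 CPM, others 32.3 to 33.3) and replicate 3 low for *Iars2* (34.4 CPM, others 39.6 to 40.6).

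The change on removing cysteine differed between KO and WT, by the test of the difference itself, for 16 genes. On the log2 scale the difference was 1.45 for *Gars*, 1.36 for *Pars2*, 1.25 for *Sars*, 1.16 for both *Iars* and *Ears2*, 1.09 for *Cars*, 0.87 for *Sars2*, 0.82 for both *Vars* and *Rars*, 0.78 for *Farsb*, 0.77 for *Lars*, 0.73 for both *Eprs* and *Tars*, 0.68 for *Nars*, 0.52 for *Tars2* and −0.49 for *Fars2*.

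The effect of genotype differed between the cysteine-free and the tryptophan-free diet for 13 genes. The difference was 1.56 for *Gars*, 1.31 for *Sars*, 1.26 for both *Iars* and *Cars*, 1.07 for *Vars*, 0.98 for *Mars*, 0.94 for *Lars*, 0.86 for *Ears2*, 0.85 for *Sars2*, 0.78 for *Nars*, 0.74 for both *Eprs* and *Rars*, and 0.66 for *Farsb*.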

How the results depend on the processing

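Of 29 calls of named genes, 18 held under every alternative, and no value of these calls changed sign. 58 of their 471 alternative values missed the threshold. The number of the 36 genes called stayed within 1.5 times of its main value under the other tools and settings except as follows. KO CTR against WT CTR went from 0 to 1 (*Lars2*) without the low-count filter and with DESeq2. WT noCys and WT noTrp against WT CTR each went from 1 to 0 with the replicate block, with only the compared groups and with limma-voom. The genotype difference between the diets went from 13 to 8 with limma-voom. The cause was not tested.

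Leaving out 1 library at a time gave 22 to 28 called genes for KO noCys against WT noCys, 15 to 25 against KO CTR, 10 to 22 against KO noTrp, 8 to 18 for the difference in cysteine removal, and 5 to 16 for the genotype difference. KO CTR, WT noCys and WT noTrp against WT CTR gave 0 to 1, and KO noTrp against WT noTrp and against KO CTR gave 0. The shares of all genes called in these fits are not given beside the counts.

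With the replicate number as a block the counts, in the order above, were 27, 21, 17, 12 and 13, and no call was reversed. Of the named calls, the block ended those of *Lars2* in both WT comparisons (adjusted p = 0.144 and 0.191) and that of *Fars2* in the difference in cysteine removal (−0.46, adjusted p = 0.0608). Same-numbered libraries share only a number: over 41 pairs their correlation of deviations ran from −0.355 to 0.353 (median −0.0346), and 7 of 21 libraries correlated best with their own number.

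Depth limits *Pars2*, *Mars2* and *Wars2* most, since their levels were under 8 CPM in every library.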
